A study of Mus musculus with 8 samples.

Results

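Genes of copper, zinc and iron handling, 10 in all, were followed in mouse liver: the metallothioneins Mt1 and Mt2, the copper genes Atox1, Atp7b, Slc31a1 and Cp, the zinc transporters Slc39a14 and Slc30a1, and the iron genes Tfrc and Fth1. They were taken as the probe sets whose gene symbol on the array platform is 1 of these names, and each of the 10 genes had exactly 1 such probe set, which named no other gene. They stand among 19938 genes with a probe set of their own. Each mouse gave 1 array, and expression is given as log2 RMA values; RMA is a method that corrects background, equalises arrays and summarises the probes of a gene.

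The livers came from 8 adult male mice, all fasted for 16 h and then fed freely for 3 h. In 4 of them, called RKO below, the labels give a floxed Rictor gene deleted in the liver with albumin-Cre, and the other 4, called WT, are labelled wild type controls. Rictor is a subunit of mTOR complex 2, a kinase complex that acts downstream of the insulin receptor. Albumin-Cre acts mainly in hepatocytes, so other liver cells of RKO mice can keep the gene. Differences are log2 fold changes, RKO minus WT, with n = 4 in each group. In bulk liver RNA, fewer cells of a type and less RNA per cell cannot be told apart. The labels do not name litters or cohorts, so p-values measure the spread between these 8 livers.

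The liver takes up, stores and exports these metals for the whole body. Copper enters hepatocytes through Slc31a1 (CTR1), is carried by the chaperone Atox1 to the pump Atp7b, and leaves on ceruloplasmin (Cp) or in bile. Zinc enters through carriers such as Slc39a14 (ZIP14), leaves the cytosol through Slc30a1 (ZnT1) and is bound by metallothioneins, whose genes the zinc-sensing factor Mtf1 switches on. Iron is taken up through the transferrin receptor (Tfrc) and stored in ferritin, of which Fth1 is the heavy chain; both are controlled largely after transcription by iron regulatory proteins.

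Some facts of the arrays touch every value below. The Rictor probe set averaged 9.45 ± 0.22 in RKO and 9.40 ± 0.19 in WT livers (SD, n = 4 each). It can hold exons outside the deleted part and RNA of other cells, so it does not check the labels. The arrays numbered 1 stood apart from their groups: on the first principal component RKO 1 lay at -0.292 and WT 1 at -0.0497, against 0.417 to 0.464 for the other RKO arrays and -0.355 to -0.292 for the other WT arrays. Igfbp1, which insulin represses, read 7.76 on RKO 1 and 9.65 to 10.10 on the other RKO arrays, against 10.04 on WT 1 and 7.29 to 7.40 on the other WT arrays. Results are therefore also given without these arrays, a choice made with earlier results of these data known. The 9 measured of 10 hepatocyte markers, Alb among them, differed by -0.13 to 0.06, with 0 called. Alb averaged 14.22 in RKO and 14.21 in WT livers, where the highest value on any array was 14.62. Differences can be compressed near that top, so small differences of such markers say little.

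Of the 10 genes, the copper chaperone Atox1 was the 1 whose 4 RKO livers all lay above the 4 WT livers, and no gene passed the test over all probe sets. The test was limma's moderated test with Benjamini-Hochberg adjustment, and passing means an adjusted p under 0.05. Over all genes 0 of 19938 passed (0%), while 2062 genes had an unadjusted limma p under 0.05 (10.3%); a plain two-sample test with the same adjustment also called 0. Groups did not overlap in 4.42% of all genes, 1.81% with RKO higher and 2.61% with RKO lower. Among the 10 genes 7 had the higher mean in RKO livers, with a median difference of 0.04, against 8585 of 19938 and a median of -0.02 over all genes. Apart from Atox1 the differences lay between -0.04 and 0.17.

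**Figure D1:**
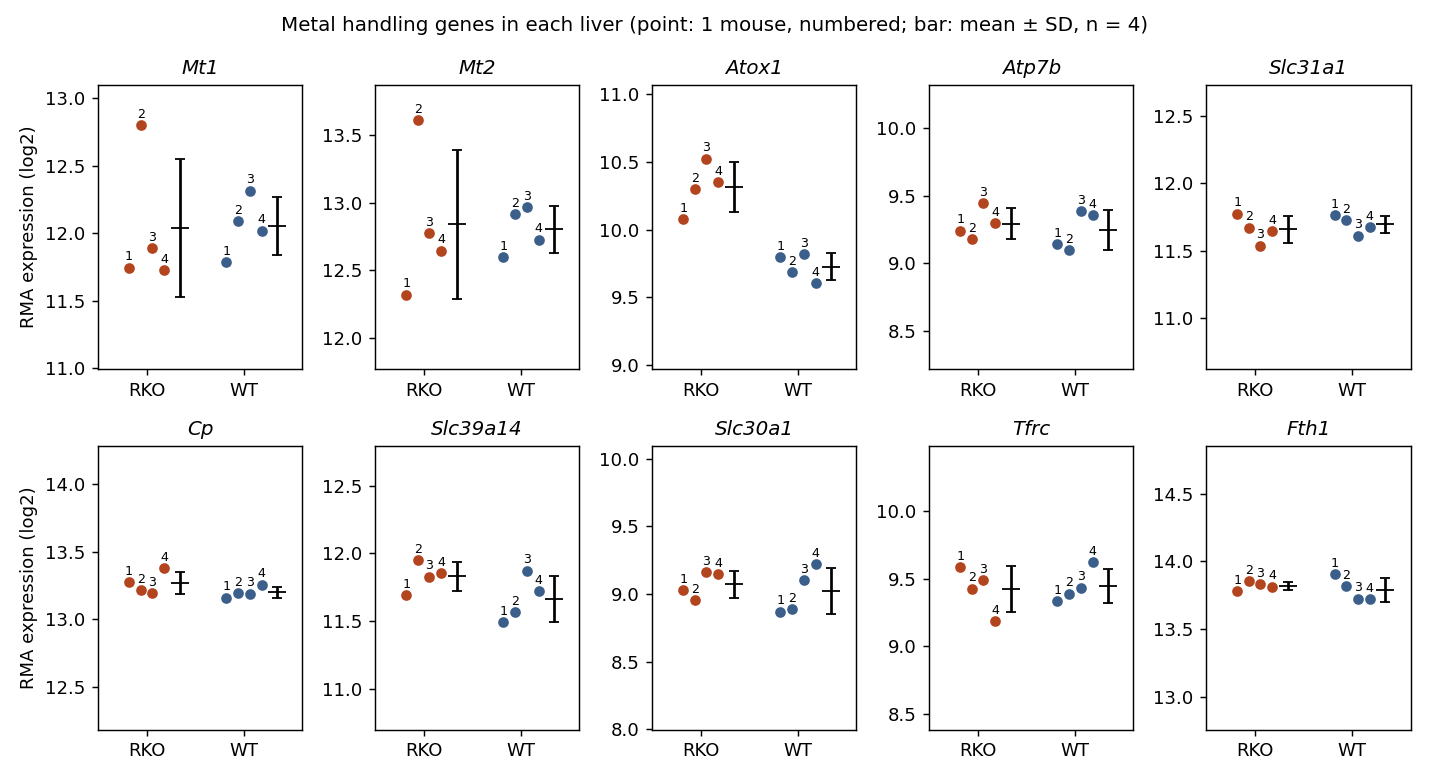
RMA expression (log2) of the 10 genes in each liver, RKO left of WT; points are single mice with their replicate numbers, and the bars show mean ± SD (n = 4 each). All panels span the same number of log2 units. Atox1 is the panel with no overlap between the groups, and RKO 2 stands high in Mt1 and Mt2.

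Atox1 is a small cytosolic copper chaperone that hands copper to the pumps Atp7a and Atp7b. It read 10.08, 10.30, 10.52 and 10.35 in RKO livers 1 to 4, against 9.79, 9.69, 9.82 and 9.60 in WT livers 1 to 4. The lowest RKO liver, RKO 1, lay 0.26 above the highest WT liver, WT 3. The means were 10.31 ± 0.18 in RKO and 9.73 ± 0.10 in WT livers (SD, n = 4 each), a difference of 0.59 (SE 0.11; 95% interval 0.35 to 0.82), or 1.5-fold. It was larger than the spread within either group (exact two-sided permutation p = 0.0286, the smallest that 4 against 4 allows), yet it missed the threshold over all probe sets (limma adjusted p = 0.10). Over all genes the smallest adjusted p was 0.0993.

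The Atox1 call depended on the arrays that stood apart. Its direction was the same in all 18 alternatives run, which is little of a check. With arrays left out or weighted it could not change, because the groups do not overlap, and several other alternatives keep the same means. With array weights estimated by limma it passed at 0.66 (limma adjusted p = 0.00652), as did 3.38% of all genes. It also passed without RKO 1, at 0.67 (limma adjusted p = 0.0051; 4.2% of all genes), and without WT 1, at 0.61 (limma adjusted p = 0.0353; 0.466% of all genes). With neither of the arrays numbered 1 in the fit it stood at 0.69 (limma adjusted p = 0.00184), where 7.24% of all genes passed. The other 9 genes passed in none of their 18 alternatives. Across its alternatives the adjusted p of Atox1 ran from 0.00184 to 0.499 and its difference from 0.52 to 0.69.

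The stretch before the Atox1 start is shown because this is the gene that separated the groups. It is RefSeq sequence of build GRCm38.p6, the 250 bases before the start, 5′ to 3′ on the gene's strand. Capitals mark the 1 match to TGACNNNGC, the core of the antioxidant response element that Nrf2 binds, 74 to 66 bases before the start.
Atox1, chr11:55461209-55461458, minus strand: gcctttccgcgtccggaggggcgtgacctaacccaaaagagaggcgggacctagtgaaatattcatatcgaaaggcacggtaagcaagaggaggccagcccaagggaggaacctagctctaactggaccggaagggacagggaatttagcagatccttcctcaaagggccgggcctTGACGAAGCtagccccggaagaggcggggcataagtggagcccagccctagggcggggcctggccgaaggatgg
Over the 300-base windows that also take in 50 bases after the start, 12.4% of the 32851 windows in the table hold this core on either strand. Among the 10 genes it also lay before the starts of Mt2 (79 to 71 bases) and Slc30a1 (82 to 74 bases), whose groups overlapped. The Atox1 window held no match to the metal response element described next. A match is a string of letters and was not tested for binding.

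The other members of the copper route differed little between the groups. Slc31a1, the high-affinity copper importer, read 11.77, 11.67, 11.54 and 11.65 in RKO livers, against 11.76, 11.73, 11.61 and 11.68 in WT livers. RKO livers held both the highest and the lowest value, with a difference of -0.04 (SE 0.08; 95% interval -0.21 to 0.13; limma adjusted p = 0.909). Atp7b, the copper pump that is defective in Wilson disease, read 9.24, 9.18, 9.45 and 9.30 in RKO livers, against 9.14, 9.10, 9.39 and 9.35 in WT livers. The difference of 0.05 (SE 0.10; 95% interval -0.18 to 0.27; limma adjusted p = 0.915) was below the spread within groups. Cp, the plasma ferroxidase ceruloplasmin, read 13.28, 13.21, 13.20 and 13.38 in RKO livers, against 13.16, 13.19, 13.19 and 13.26 in WT livers. Its difference was 0.07 (SE 0.06; 95% interval -0.06 to 0.20; limma adjusted p = 0.740), with RKO 4 the highest liver of all. The intervals of these 3 genes exclude a difference as large as the 0.59 measured for Atox1. Cp reads high on the scale, where differences can be compressed.

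**Figure D2:**
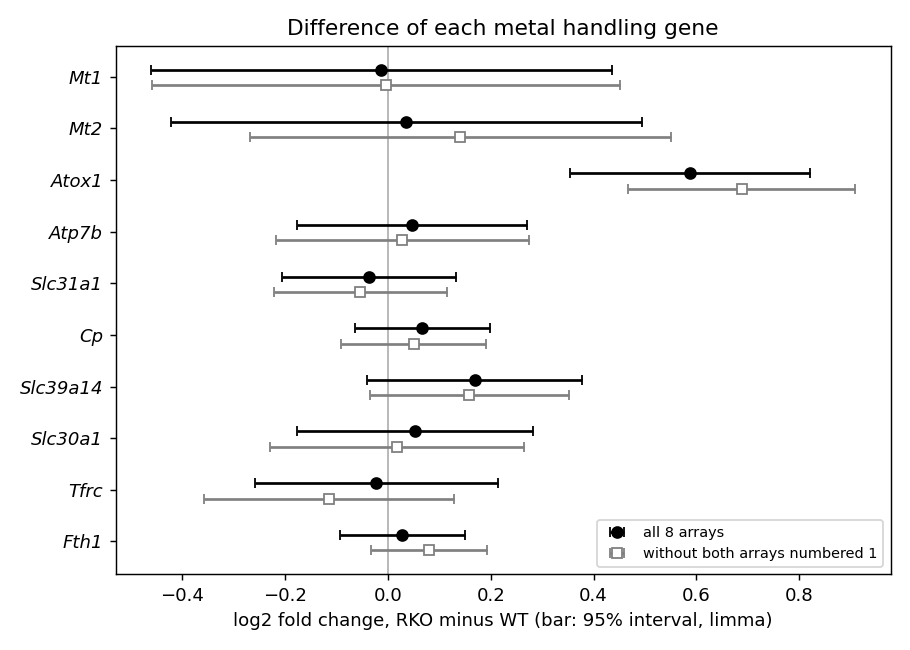
Log2 fold change of each gene, RKO minus WT, with its 95% interval from limma, for all 8 arrays (filled circles) and without both arrays numbered 1 (open squares). The intervals of Atox1 lie above 0 in both fits, while those of the other 9 genes cross 0.

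Other copper genes were read from a list of 22, of which 21 were measured: 12 had a higher and 9 a lower mean in RKO livers, and 0 passed (0 of 19938 over all genes). Unadjusted limma p-values under 0.05 were found for 3 higher and 1 lower gene of the 21, where all genes gave 3.82% higher and 6.53% lower. The higher genes were Ccs, Cox17 and Cox19, and the lower gene was Slc31a2. Cox19 differed by 0.33 (SE 0.15, limma adjusted p = 0.434), and its groups overlapped. Of the 21 genes 3, Ccs, Cox17 and Cox11, lay higher in all RKO livers than in all WT livers, and 0 lay lower, against 1.81% and 2.61% of all genes. Like Atox1, Ccs and Cox17 are copper chaperones: Ccs loads the superoxide dismutase Sod1, and Cox17 carries copper for cytochrome c oxidase. Cox11 acts on the same oxidase in the inner mitochondrial membrane.

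Ccs read 10.52, 10.62, 10.51 and 10.62 in RKO livers, against 10.46, 10.26, 10.31 and 10.04 in WT livers. WT 1 lay just 0.04 under the lowest RKO liver, and the difference was 0.30 (SE 0.10; limma adjusted p = 0.296). Cox17 read 7.13, 7.30, 7.29 and 7.22 in RKO livers, against 7.11, 6.87, 6.92 and 6.84 in WT livers. Its margin was narrower still, 0.02 between RKO 1 and WT 1, with a difference of 0.30 (SE 0.08; limma adjusted p = 0.215). Cox11 differed by 0.10 (SE 0.08; limma adjusted p = 0.717). Sod1, the enzyme that Ccs serves, averaged 13.01 ± 0.06 in RKO and 13.02 ± 0.07 in WT livers (SD, n = 4 each), a difference of -0.0042.

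The copper gene with the lowest difference was Slc31a2, the CTR2 protein of endosomes and lysosomes. It read 10.43, 10.06, 10.13 and 10.23 in RKO livers, against 10.81, 10.77, 10.47 and 10.41 in WT livers. The groups overlapped by 0.02, RKO 1 over WT 4, and the difference was -0.40 (SE 0.12; limma adjusted p = 0.242). With array weights Slc31a2 and Cox17 passed (-0.47 and 0.34; limma adjusted p = 0.0341 and 0.0329), in opposite directions, so 2 of the 21 genes were called where 3.38% of all genes were. Without RKO 1 Slc31a2 passed (-0.47, limma adjusted p = 0.043) and Cox17 did not (0.34, limma adjusted p = 0.0538). That was 1 of the 21 genes called, where 4.2% of all genes were. Without WT 1 the list had 0 genes called, where 0.466% of all genes were. There Slc31a2 stood at -0.33 (limma adjusted p = 0.253) and Cox17 at 0.36 (limma adjusted p = 0.0753). With neither array numbered 1 the list had 2 higher genes that passed, Ccs and Cox17 (0.38 and 0.40; limma adjusted p = 0.0364 and 0.0153), and 2 lower, Slc31a2 and the metalloreductase Steap4, against 7.24% of all genes. Commd1, a partner of Atp7b, differed by -0.14 (SE 0.08; limma adjusted p = 0.580), and Atp7a, the copper pump of most other tissues, by -0.0090 (SE 0.10; limma adjusted p = 0.984).

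**Figure D3:**
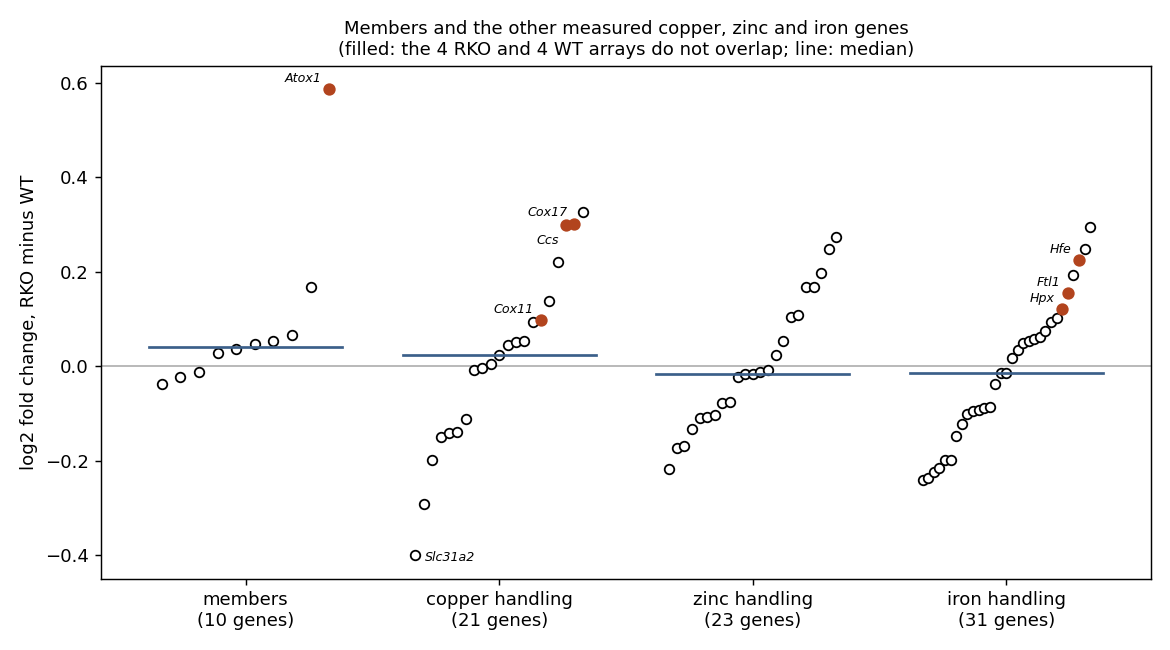
Log2 fold change, RKO minus WT, of the 10 genes and of the other measured copper, zinc and iron genes, 1 point per gene sorted within its list. Filled points are genes whose 4 RKO and 4 WT livers do not overlap, and the lines are medians. All filled points, Atox1 and 3 each in the copper and iron lists, lie above 0, and the zinc list has none.

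The metallothioneins Mt1 and Mt2, small cysteine-rich proteins that bind zinc and copper, varied more between mice than between groups. Mt1 read 11.75, 12.80, 11.89 and 11.73 in RKO livers, against 11.79, 12.09, 12.32 and 12.02 in WT livers. Mt2 read 12.32, 13.61, 12.78 and 12.65 in RKO livers, against 12.60, 12.92, 12.97 and 12.73 in WT livers. In both genes RKO 2 was the highest of the 8 livers, and the other 3 RKO livers lay within or below the WT range. The difference was -0.01 for Mt1 (SE 0.21; 95% interval -0.46 to 0.44; limma adjusted p = 0.988) and 0.04 for Mt2 (SE 0.21; 95% interval -0.42 to 0.49; limma adjusted p = 0.969). These intervals are the widest of the 10 genes. The SD was 0.51 in RKO and 0.22 in WT livers for Mt1, and 0.55 in RKO and 0.17 in WT livers for Mt2 (n = 4 each). Without RKO 2 the differences were -0.27 for Mt1 and -0.22 for Mt2, neither of which passed (limma adjusted p = 0.502 and 0.581).

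Mt1 and Mt2 varied together across the livers. Pearson's r was 0.950 over the 8 livers (exact permutation p = 0.000347; adjusted p = 0.0125 over 36 pairs) and Spearman's rho was 0.905 (exact permutation p = 0.00456; adjusted p = 0.164). Without RKO 2 and WT 3, the livers farthest from the median of Mt1, r was 0.778. With each group's mean removed r was 0.953, and without both arrays numbered 1 it was 0.964. The 36 pairs are those among the 9 genes other than Atox1, which was left out because its values fall into 2 clusters. By Pearson's r this was the 1 pair that passed after adjustment, and by Spearman's rho 0 pairs passed. The next pair was Atp7b with Slc30a1 (r = 0.90, exact permutation p = 0.00461, adjusted p = 0.0830; rho = 0.857, exact permutation p = 0.0107, adjusted p = 0.193). Without RKO 3 and WT 2 its r was 0.889. Whether probes of Mt1 and Mt2 also detect the other gene was not tested.

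**Figure D4:**
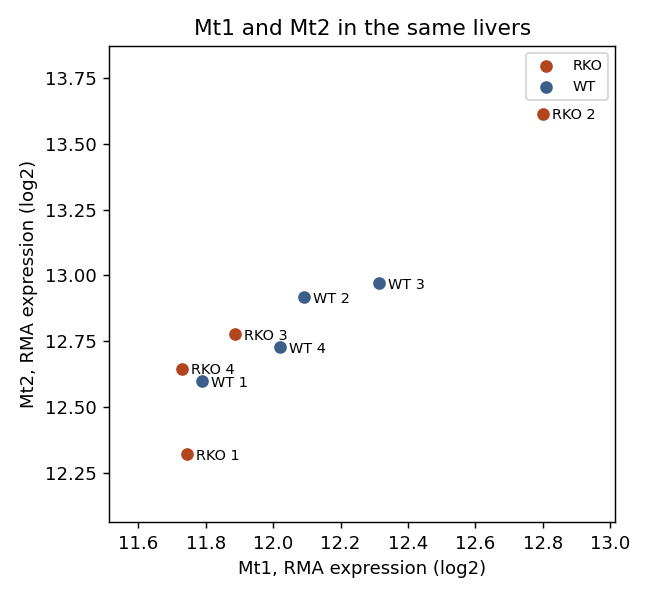
RMA expression (log2) of Mt2 against Mt1, 1 point per liver, labelled by group and replicate number. RKO and WT livers are mixed at the lower left and middle, with RKO 2 alone at the upper right.

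The stretch before the start of Mt2 is shown because the metallothionein genes are known targets of Mtf1. It is RefSeq sequence of build GRCm38.p6, the 250 bases before the start, 5′ to 3′ on the gene's strand. Capitals mark the core of the metal response element, searched as TGCACNC and TGCGCNC on both strands.
Mt2, chr8:94172368-94172617, plus strand: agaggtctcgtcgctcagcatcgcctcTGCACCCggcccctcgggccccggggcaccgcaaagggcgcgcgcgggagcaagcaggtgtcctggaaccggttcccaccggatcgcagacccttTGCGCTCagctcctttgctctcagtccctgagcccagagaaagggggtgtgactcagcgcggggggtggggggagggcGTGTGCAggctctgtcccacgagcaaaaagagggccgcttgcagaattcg
Before its start Mt2 held 3 matches, all outside the annotated gene. The windows of Mt1 and of Slc30a1, another known target, are placed at starts that lie inside the annotated gene, so that 206 and 84 of their 250 bases before the start belong to the gene span; they are not printed. Each held 1 match before that start, 23 to 17 bases away in Mt1 and 43 to 37 in Slc30a1, and both matches lie inside the gene span. Over the 300-base windows with the 50 bases after the start, Mt2 held 4 matches, Mt1 3 and Slc30a1 2. Of all 32851 windows 25.7% held at least 1 match, 7.11% at least 2, 1.97% at least 3 and 0.517% at least 4. Promoter windows were found for 9 of the 10 genes. The Atp7b window held 1 match, and 1 of the windows of Tfrc held 2 that overlap each other. Neither of the windows of Cp or of Fth1 held one, nor did that of Slc31a1. The windows of Cp and Slc31a1 and 1 window each of Tfrc and Fth1 also lie partly or wholly inside the gene span. No match in a window says only that these letters are not in it.

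Slc30a1, the zinc exporter of the plasma membrane, read 9.03, 8.95, 9.16 and 9.15 in RKO livers, against 8.87, 8.89, 9.10 and 9.22 in WT livers. The groups overlapped, with WT livers both lowest and highest, and the difference was 0.05 (SE 0.11; 95% interval -0.18 to 0.28; limma adjusted p = 0.903). Slc39a14, which imports zinc and iron not bound to transferrin, had the largest difference after Atox1. It read 11.69, 11.95, 11.83 and 11.85 in RKO livers, against 11.49, 11.56, 11.87 and 11.72 in WT livers. RKO 2 lay above all 4 WT livers, and RKO 3 and RKO 4 above 3 of them. The difference of 0.17 (SE 0.10, 95% interval -0.04 to 0.38) did not pass (limma adjusted p = 0.550, exact permutation p = 0.20). The 95% interval lay above 0 with array weights (0.03 to 0.39, limma adjusted p = 0.185) and without RKO 1 (0.004 to 0.43, limma adjusted p = 0.265). It crossed 0 without WT 1 (-0.10 to 0.32) and without both arrays numbered 1 (-0.04 to 0.35).

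The zinc list held no gene that passed. All 23 of its genes were measured, with 9 means higher and 14 lower in RKO livers, a median of -0.02 and 0 called. Groups separated in 0 of the 23 genes, against 4.42% of all genes. Of the 23 genes 1 had an unadjusted limma p under 0.05, against 10.3% of all genes. That gene was Slc39a4, a zinc importer, at 0.27 (SE 0.12; limma adjusted p = 0.430). Slc30a3, a zinc carrier known from synaptic vesicles, differed by 0.20 (SE 0.10; limma adjusted p = 0.497). Mtf1 itself averaged 9.43 ± 0.16 in RKO and 9.64 ± 0.17 in WT livers (SD, n = 4 each), a difference of -0.22 (SE 0.11, limma adjusted p = 0.504). With array weights the Mtf1 difference was -0.24 (95% interval -0.46 to -0.03, limma adjusted p = 0.185). Without both arrays numbered 1 it was -0.35 (95% interval -0.58 to -0.13, limma adjusted p = 0.0593), where 7.24% of all genes passed. Mtf1 passed in 0 of its 18 alternatives.

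The iron members Tfrc and Fth1 did not separate either. Tfrc, the receptor for transferrin-bound iron, read 9.59, 9.43, 9.49 and 9.19 in RKO livers, against 9.33, 9.39, 9.43 and 9.62 in WT livers. The lowest value was that of RKO 4 and the highest that of WT 4, and the difference was -0.02 (SE 0.11; 95% interval -0.26 to 0.21; limma adjusted p = 0.964). Fth1 read 13.78, 13.85, 13.83 and 13.81 in RKO livers, against 13.91, 13.82, 13.73 and 13.72 in WT livers. RKO livers lay inside the WT range, and the difference was 0.03 (SE 0.06; 95% interval -0.09 to 0.15; limma adjusted p = 0.904). Fth1 lies near the top of the scale, whose highest value on any array was 14.62, and differences can be compressed there. The same limit applies to Ftl1, Hpx, Hamp and Trf below.

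Of the 33 other iron genes 31 were measured, 15 with a higher and 16 with a lower mean in RKO livers, at a median of -0.01 with 0 called. In 3 of the 31, Ftl1, Hpx and Hfe, all RKO livers lay above all WT livers, and 0 separated the other way, against 1.81% and 2.61% of all genes. Ftl1, the ferritin light chain, read 13.76, 13.75, 13.91 and 13.78 in RKO livers, against 13.72, 13.64, 13.65 and 13.57 in WT livers. Its margin was 0.03 and its difference 0.16 (SE 0.06; limma adjusted p = 0.342), so the light chain separated while the heavy chain gene Fth1 overlapped; the difference between these 2 was not tested. Another 4 probe sets name Ftl1 together with other genes and gave from 0.13 to 0.25. Ferritin genes have near-identical copies, so signal from copies cannot be separated here.

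Hpx, the plasma carrier of free heme, averaged 13.94 ± 0.03 in RKO and 13.81 ± 0.06 in WT livers (SD, n = 4 each), a difference of 0.12 (SE 0.05; limma adjusted p = 0.391). Hfe, the hemochromatosis protein that acts in hepcidin control, read 9.36, 9.37, 9.38 and 9.36 in RKO livers, against 9.26, 9.21, 9.16 and 8.93 in WT livers. The 4 RKO livers were nearly alike, and the difference of 0.22 (SE 0.09; limma adjusted p = 0.407) was 0.15 without WT 4, the lowest liver. Hepcidin (Hamp), the liver hormone that closes the iron exporter, averaged 13.68 ± 0.12 in RKO and 13.72 ± 0.07 in WT livers. Its target Slc40a1 (ferroportin) averaged 11.18 ± 0.20 in RKO and 11.19 ± 0.21 in WT livers (SD, n = 4 each for both genes). Neither passed (limma adjusted p = 0.892 and 0.979).

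None of the remaining iron genes chosen by name passed, and the 95% interval of each crossed 0. Trf, the plasma carrier transferrin, differed by 0.02 (SE 0.04) and Tfr2, the liver's sensor of it, by 0.09 (SE 0.08). The iron regulatory proteins differed by -0.09 for Aco1 (SE 0.09) and 0.03 for Ireb2 (SE 0.10). Ncoa4, the receptor that takes ferritin to lysosomes, differed by 0.07 (SE 0.07). Slc11a2 (DMT1), an iron importer, differed by -0.20 (SE 0.10; limma adjusted p = 0.497), and by -0.29 without both arrays numbered 1 (95% interval -0.51 to -0.06; limma adjusted p = 0.118). With array weights, and without RKO 1, WT 1 or both arrays numbered 1, the iron and zinc lists had 0 genes called. In the same order 3.38%, 4.2%, 0.466% and 7.24% of all genes passed, so few calls would be due in lists of 31 and 23 genes.

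Metallothionein genes also respond to inflammation and glucocorticoids, and lists for both were read on the same arrays. In the acute phase list 9 of 18 genes had a higher mean in RKO livers, 0 passed and the median was -0.0036. In 1 of the 18, the serum amyloid gene Saa1, all RKO livers lay above all WT livers (8.78, 6.43, 6.04 and 7.61 in RKO livers, against 5.60, 5.98, 5.91 and 5.95 in WT livers). Its difference was 1.35 (SE 0.45; limma adjusted p = 0.285), with RKO 1 the highest. The margin was 0.06, RKO 3 over WT 2, and 1.81% of all genes separated with RKO higher. The WT values are low, under the median of all probe sets on every array (6.90 to 7.03). Unadjusted limma p-values under 0.05 were found for 2 higher genes, Saa1 and Itih3, and 1 lower gene, Saa4, against 3.82% and 6.53% of all genes. In the glucocorticoid list 5 of the 10 measured of 12 genes had a higher mean, 0 passed and the median was -0.03. There 2 higher genes, Zbtb16 and Angptl4, and 1 lower gene, Sgk1, had an unadjusted limma p under 0.05, against 3.82% and 6.53% of all genes. Their differences were 0.63, 0.77 and -0.29 (limma adjusted p = 0.185, 0.304 and 0.449), and the groups of each overlapped. Saa2, of the same family as Saa1, read 11.88 on RKO 1 and 7.77 to 9.68 on the other RKO livers, against 8.50 to 8.94 in WT livers. RKO 1 was the lowest of the 8 livers for Mt2 and the second lowest for Mt1. This is 1 liver, and whether Mt1 or Mt2 vary with the genes of either list was not tested.

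Markers of other cell types were read beside these values. The Kupffer and macrophage markers had 8 of 10 means higher in RKO livers, with their summed linear signal between 6961 and 11977 in RKO and between 6074 and 11751 in WT livers. The lymphocyte markers had 7 of 7 measured means lower, with sums between 578 and 681 in RKO and between 653 and 778 in WT livers. Apart from Cd3e, their means lay near or under the median of all probe sets (6.90 to 7.03 over the arrays). Whether signals this low measure their transcripts was not tested. Over all genes 8585 of 19938 means were higher and 11353 lower. Of the 5 erythroid markers measured of 10, which bear on Tfrc, 2 had the higher mean, with sums between 1475 and 2395 in RKO and between 1734 and 2398 in WT livers. Means were higher in RKO livers for 4 of 8 endothelial, 4 of 8 stellate and 2 of 5 measured cholangiocyte markers. None of these genes passed, and their part in the differences above was not tested.

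The genes whose profile over the 8 livers was most like that of Atox1 were Fkbp2 (r = 0.974), Ubac1 (r = 0.973), Rps14 (r = 0.970), Rpl23 (r = 0.969) and Snord33 (r = 0.968), by Pearson's r among 6291 genes that spanned at least 0.5 log2 units. Fkbp2 is a prolyl isomerase of the endoplasmic reticulum, Rps14 and Rpl23 encode ribosomal proteins, and Snord33 is a small nucleolar RNA. All 5 separated the groups too, with differences from 0.39 for Ubac1 to 1.00 for Snord33 (limma adjusted p = 0.175 and 0.10), so r over all livers also holds the difference between the groups. With array weights, and without both arrays numbered 1, all 5 passed, as Atox1 did, where 3.38% and 7.24% of all genes passed. Because the 5 were picked for likeness to Atox1 on these same livers, their separation and these calls are no separate result. Other probe sets gave 0.75 for Rps14 and 0.47 for Rpl23, and ribosomal protein genes have near-identical copies whose signal cannot be separated here. With each group's mean removed r lay between 0.867 for Ubac1 and 0.918 for Rps14.

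For Mt1 the closest profiles were those of Smc1b (r = 0.979), 4930451I11Rik (r = 0.967), Il17a (r = 0.960), Mt2 (r = 0.950) and Lrrc71 (r = 0.948). With each group's mean removed r lay between 0.953 for Mt2 and 0.983 for 4930451I11Rik. In the 4 genes other than Mt2, as in Mt1, RKO 2 was the highest liver, at 5.83 for Smc1b, 8.93 for 4930451I11Rik, 6.69 for Il17a and 6.79 for Lrrc71. The next liver stood at 5.53, 8.61, 6.41 and 6.57 in the same order, which was WT 3 in each. Smc1b, Il17a and Lrrc71 read low, under the median of all probe sets on every array (medians 6.90 to 7.03). Whether signals this low measure their transcripts was not tested. These values are a description of 8 livers, picked for likeness from many genes.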

How the data were processed

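Liver RNA of 8 mice was hybridised to Affymetrix Mouse Gene 1.0 ST arrays, 1 per mouse. The authors' deposited values are 1 number per probe set and array, taken as log2 values; per the submitters' processing notes they come from Affymetrix Expression Console, RMA and Partek, with versions and build not given in the sources used here. RMA gives all arrays the same distribution of probe signals, which hides any shift common to most genes.

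Gene names come from the platform annotation, with symbols updated by Entrez identifier. Of 35556 probe sets, 21789 name 1 gene, 1621 several and 12146 none. limma 3.58.1 in R 4.3.3 (lmFit, eBayes with trend, no covariate) was fitted to the 23410 that name a gene, and p-values were adjusted by Benjamini-Hochberg over them, with 0.05 as threshold; a gene was counted by its brightest probe set of 1 symbol. For single genes an exact two-sided permutation test over the 70 regroupings was added. The fit was tested on simulated data. The number of arrays limits the precision.

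The members and gene lists were chosen with earlier results of these data known. Named are the members, 17 genes picked by name, the 3 smallest p-values of each metal list and the 5 closest profiles of Mt1 and Atox1. Cox11, Cox19, Steap4, Saa1, Saa2, Saa4, Itih3, Zbtb16, Angptl4 and Sgk1 were named after their values were seen. Same-numbered arrays were not treated as pairs (correlations of their deviations from group means -0.0790, -0.130, -0.0332 and 0.0784).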

Additional observations from a re-analysis of the deposited data

Results flagged for a closer look

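In 5 of 82 groups of 4 livers (41 named genes), 1 liver stood apart from its group by Dixon's test, which flags about 1 in 20 groups by chance. Mt1 read 12.80 on RKO 2, with the other RKO livers between 11.73 and 11.89. 4930451I11Rik, picked for its likeness to Mt1, read 8.93 on the same liver. Ftl1 read 13.91 on RKO 3, with the other RKO livers at 13.75 to 13.78. Slc30a3 read 7.71 on WT 3, with the other WT livers at 7.48 to 7.51. Igfbp1 read 10.04 on WT 1, with the other WT livers at 7.29 to 7.40. The cause of these values was not tested.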

How the results depend on the processing

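Of the 18 alternatives, 4 made calls. With array weights 673 genes passed, Atox1 as the 1 of the 10 members; without both arrays numbered 1 these counts were 1443 and 1. With single arrays left out the counts ran from 0 to 838 genes and from 0 to 1 member: 838 without RKO 1, 93 without WT 1 and 0 without any other array. The counts were 0 with no variance trend, a plain two-sample test, other sets of probe sets tested, quantile normalization or median centring. With the replicate number as a block, a pairing by number that the arrays did not show, 0 genes and 0 members passed.

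Small differences changed sign. Median centring gave 0.0041 for Mt1, 0.0029 for Slc40a1, 0.013 for Sod1 and 0.0080 for Atp7a, quantile normalization 0.011 for Atp7a. Array weights gave -0.021 for Mt2, 0.027 for Atp7a, -0.033 for Smc1b and -0.018 for Il17a, and leaving out both arrays numbered 1 gave 0.017 for Sod1. With single arrays left out the ranges were -0.27 to 0.091 for Mt1, -0.22 to 0.21 for Mt2, -0.0055 to 0.093 for Atp7b, -0.076 to 0.0026 for Slc31a1 and -0.077 to 0.055 for Tfrc. They were -0.030 to 0.15 for Rictor, -0.086 to 0.0066 for Hamp, -0.12 to 0.077 for Slc40a1, -0.018 to 0.092 for Ireb2, -0.036 to 0.019 for Sod1 and -0.047 to 0.061 for Atp7a. For the genes like Mt1 they were -0.11 to 0.070 for Smc1b, -0.067 to 0.097 for 4930451I11Rik, -0.10 to 0.097 for Il17a and -0.16 to 0.016 for Lrrc71. None of these values passed, and the cause was not tested. No other probe set names a member, so that alternative gave no value.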
